A study of Mus musculus with 6 samples.

Results

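The keratin family was followed across 6 mouse fallopian tube organoid cultures. Members were chosen by symbol: every probe whose RefSeq transcript maps to a mouse gene named Krt followed by digits and at most 1 letter was taken, and the keratin-associated proteins (Krtap) were left out. This gave 54 keratin genes with 61 probes, of 23787 named genes on the array. All 54 are on 2 chromosomes, with the 27 genes of one cluster on chromosome 11 and the 27 of the other on chromosome 15.

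Keratins form the intermediate filaments of epithelial cells. A filament is built from heterodimers of a type I and a type II chain, so keratins are normally made in pairs. Krt8 and Krt18 are the pair of simple epithelia such as the oviduct lining, Krt5 and Krt14 the pair of the basal layer of stratified epithelia, Krt6a, Krt6b, Krt16 and Krt17 are the chains of wounded or rapidly renewing epithelium, and hair and its root sheaths have sets of their own. In pathology these patterns are read to tell glandular from squamous epithelium.

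Such organoids are hollow balls of oviduct lining cells that grow in a gel. Total RNA of 6 cultures was measured by 1-colour Agilent microarray, with a single array per group and no replicate. The tumour-derived Pik3ca/Trp53 culture was grown from a subcutaneous tumour that the labels class as adenocarcinoma, and its source, the Pik3ca/Trp53 culture, carries the activating allele Pik3caH1047R with Trp53 loss. The tumour-derived Apc/Trp53 culture was grown from a subcutaneous lesion classed as a cyst, and its source, the Apc/Trp53 culture, carries the allele Apc580D with Trp53 loss. The Trp53-loss culture has lost Trp53 alone. The control culture is Trp53flox/flox carrying the control vector pLKO.1. All 6 have the same medium, whose additives include EGF, the Wnt agonists R-spondin1 and CHIR-99021, Noggin, Jagged-1 and Y27632. The age of the mice, the number of animals behind a culture and the host of the tumours are not stated in the labels.

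A value below is the scaled log2 signal of a gene: log2 of the background-subtracted signal minus the 75th percentile of the array, with 0 at that percentile. A probe that the scanner software did not call well above background is described as dim. Between 45.4% and 51.0% of probes were well above background per array, no spot was saturated, and the median SD of copies of the same probe on an array was 0.04 to 0.08 log2 units. The 6 arrays shared 1 slide and 1 scan. The arrays of Trp53 loss, Pik3ca/Trp53 and Apc/Trp53 lay in row 1, and those of both tumour-derived cultures and of the control in row 2. Slide row therefore cannot be told apart from 3 of the 5 comparisons below (Trp53 loss with control, and each tumour-derived culture with its source). The remaining comparisons are within row 1, with Trp53 loss in column 4, Pik3ca/Trp53 in column 2 and Apc/Trp53 in column 1. Slide column cannot be told apart from those. Trp53 itself was at -6.62 in Trp53 loss (dim) and 0.88 in control, at least 44.6-fold lower. In Apc/Trp53 the signal was -3.59, not dim and 22.2-fold lower than in control, and Trp53 was dim in tumour-derived Apc/Trp53 and in Pik3ca/Trp53, at least 48.2-fold and 34.8-fold lower. It was at -1.64 and well above background in the tumour-derived Pik3ca/Trp53 culture, 5.72-fold lower than in control but at least 6.07-fold higher than in its source, where it was dim. The library labelled tumour-derived Pik3ca/Trp53 thus goes partly against its label, and no value for that culture can be had without that array. All 5 general epithelial markers (Epcam, Cdh1, Cldn3, Cldn4 and Cldn7) and both oviduct secretory markers (Pax8 and Ovgp1) were well above background on all 6 arrays. In RNA of a whole culture, fewer cells of a type and less RNA per cell cannot be told apart.

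Keratin signals differed widely between the cultures. Of the 54 genes, 36 were well above background on at least 1 array, 18 of them on all 6, and 18 on none. The tumour-derived Pik3ca/Trp53 array had 32 detected keratins and its source 22. The tumour-derived Apc/Trp53 array had 24, its source 27, Trp53 loss 26 and control 24. The distance from a gene's lowest to its highest array had a median of 3.17 log2 units over the 36 detected keratins, against 1.16 over all 16053 detected genes. Among genes above background on all 6 arrays it was 1.82 for 18 keratins and 0.94 for 12561 genes. The tumour-derived Pik3ca/Trp53 array gave the highest signal for 22 of the 36 keratins (61.1%), against 24.7% of all detected genes. The tumour-derived Apc/Trp53 array gave the lowest for 10 of the 36 (27.8%), against 21.3% of all detected genes. The 18 keratins detected nowhere are the epidermal Krt1, Krt2, Krt76 and Krt78, 6 root sheath keratins and 8 hair keratins.

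**Figure D1:**
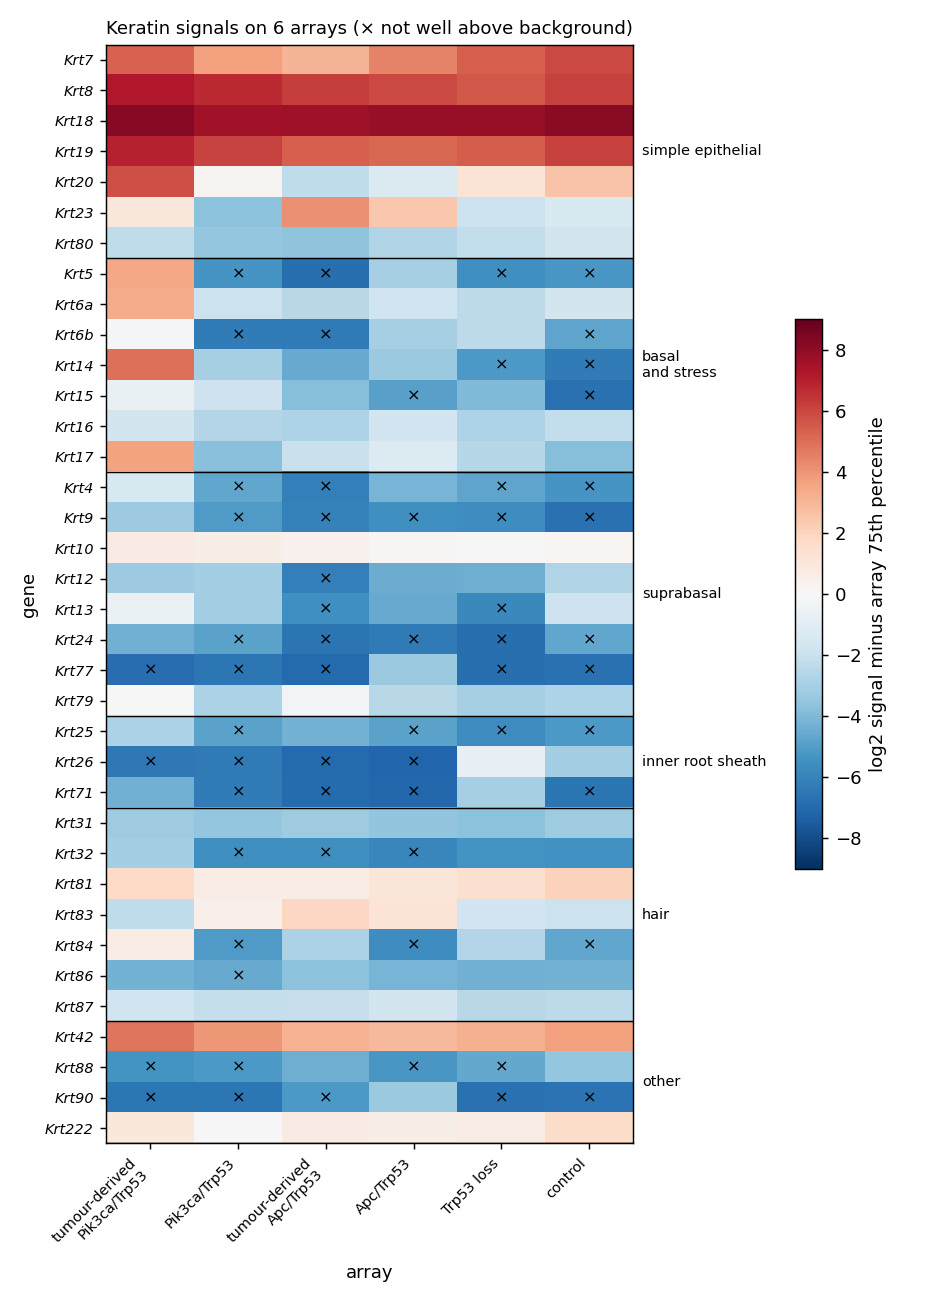
Scaled log2 signal (colour, 0 at the 75th percentile of the array) of the 36 detected keratins (rows, grouped by role) on the 6 arrays (columns), with a cross where the gene was not well above background. Colours compare arrays within a row, not one gene with another, since probes differ in brightness. The tumour-derived Pik3ca/Trp53 column is the warmest for most basal and stress keratins, while Krt8, Krt18 and Krt19 stay red on every array.

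The keratins of simple epithelium were present in every culture. All 7 genes of that list (Krt7, Krt8, Krt18, Krt19, Krt20, Krt23 and Krt80) were well above background on all 6 arrays. Krt18, the type I chain of the simple pair, was at 8.21 in tumour-derived Pik3ca/Trp53, 7.55 in Pik3ca/Trp53, 7.61 in tumour-derived Apc/Trp53, 7.87 in Apc/Trp53, 7.82 in Trp53 loss and 8.12 in control. Krt8, its type II partner, was at 7.23, 6.74, 6.25, 5.92, 5.58 and 6.17 in the same order of cultures. Krt19, a small type I chain of ducts and glands, was at 6.92, 6.06, 5.40, 5.16, 5.45 and 6.14. These 3 genes spanned 0.66, 1.64 and 1.76 log2 units, and the tumour-derived Pik3ca/Trp53 culture was the highest for each.

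The other simple keratins varied more. Krt7, the usual type II chain of glandular and ductal epithelium, was at 5.34 in tumour-derived Pik3ca/Trp53, 3.69 in Pik3ca/Trp53, 3.06 in tumour-derived Apc/Trp53, 4.45 in Apc/Trp53, 5.40 in Trp53 loss and 5.93 in control. Krt20, a chain best known from gut epithelium and the umbrella cells of the urothelium, was at 5.78, 0.23, -2.28, -1.32, 1.25 and 2.54. Krt23, a type I chain whose gene lies next to Krt20, was at 1.05, -3.69, 4.12, 2.46, -1.95 and -1.36. Krt20 was thus highest in the tumour-derived Pik3ca/Trp53 culture and lowest in the tumour-derived Apc/Trp53 culture, whereas Krt23 was highest in both Apc/Trp53 cultures and lowest in Pik3ca/Trp53 before inoculation. Krt80, a type II chain of differentiating epithelium, was at -2.30, -3.46, -3.62, -2.74, -2.24 and -1.62.

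Of the 7 basal and stress keratins, Krt5, Krt14, Krt17, Krt6a and Krt6b were set apart most in the tumour-derived Pik3ca/Trp53 culture, at over 2 log2 units above each of the other 5 arrays, while Krt15 and Krt16 differed less. Krt5, the type II chain of the basal pair, was at 3.47 in tumour-derived Pik3ca/Trp53, -5.34 (dim) in Pik3ca/Trp53, -6.77 (dim) in tumour-derived Apc/Trp53, -3.0 in Apc/Trp53, -5.54 (dim) in Trp53 loss and -5.23 (dim) in control. Krt14, its type I partner, was at 4.92, -2.96, -4.53, -3.35, -5.16 (dim) and -6.26 (dim). Krt17, a stress and appendage chain, was at 3.64, -3.77, -2.02, -1.24, -2.59 and -3.81. For these 3 genes the nearest other culture was Apc/Trp53 for Krt5 and Krt17 and Pik3ca/Trp53 for Krt14, and each lay more than 4 log2 units lower. Krt6a, a wound-induced type II chain, was at 3.34, -1.95, -2.48, -1.77, -2.37 and -1.62. Krt6b, its close relative, was at -0.17, -6.27 (dim), -6.35 (dim), -2.98, -2.39 and -4.72 (dim). Krt6a and Krt6b have near-identical coding sequences and may share signal on these probes. Krt15, a type I chain of basal cells and the hair bulge, was at -0.67, -1.86, -3.86, -4.88 (dim), -4.01 and -6.70 (dim). Krt16, a partner of the Krt6 chains, was at -1.65, -2.63, -2.80, -1.69, -2.76 and -2.23, so it was the flattest of the 7 with a span of 1.15.

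Promoter sequence is shown for 5 of the keratins on which the results turn, for a look at what their start sites share. The windows run from 250 bases before to 50 after the start of the gene, from RefSeq on GRCm38.p6, and capitals mark matches on either strand to the motif of the TATA element, TATAAA, or to that of the Sp1-binding element, which is spelled GGGCGG.
Krt5 (chr15:101712856-101713155, minus strand): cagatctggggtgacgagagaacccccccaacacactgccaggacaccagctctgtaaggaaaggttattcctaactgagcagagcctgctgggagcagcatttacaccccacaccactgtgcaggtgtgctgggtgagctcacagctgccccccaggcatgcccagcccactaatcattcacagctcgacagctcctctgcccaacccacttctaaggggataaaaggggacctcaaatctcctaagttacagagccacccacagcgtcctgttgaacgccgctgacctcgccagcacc
Krt14 (chr11:100205981-100206280, minus strand): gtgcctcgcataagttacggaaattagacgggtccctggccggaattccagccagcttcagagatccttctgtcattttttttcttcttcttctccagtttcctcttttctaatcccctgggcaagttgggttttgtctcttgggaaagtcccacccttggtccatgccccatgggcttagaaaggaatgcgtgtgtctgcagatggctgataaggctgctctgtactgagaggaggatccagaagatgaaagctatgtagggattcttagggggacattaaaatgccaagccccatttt
Krt20 (chr11:99438104-99438403, minus strand): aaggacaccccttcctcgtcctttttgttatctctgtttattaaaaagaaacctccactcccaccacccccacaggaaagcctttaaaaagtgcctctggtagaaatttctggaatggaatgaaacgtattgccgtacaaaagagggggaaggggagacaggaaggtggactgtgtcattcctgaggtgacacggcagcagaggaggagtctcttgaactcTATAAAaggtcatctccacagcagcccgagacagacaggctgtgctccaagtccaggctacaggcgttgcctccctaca
Krt23 (chr11:99493071-99493370, minus strand): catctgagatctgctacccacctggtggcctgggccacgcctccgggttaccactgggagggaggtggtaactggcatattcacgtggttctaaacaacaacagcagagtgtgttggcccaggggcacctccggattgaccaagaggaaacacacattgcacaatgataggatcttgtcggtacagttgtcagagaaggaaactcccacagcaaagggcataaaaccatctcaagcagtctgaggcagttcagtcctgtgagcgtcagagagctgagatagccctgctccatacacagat
Krt7 (chr15:101412153-101412452, plus strand): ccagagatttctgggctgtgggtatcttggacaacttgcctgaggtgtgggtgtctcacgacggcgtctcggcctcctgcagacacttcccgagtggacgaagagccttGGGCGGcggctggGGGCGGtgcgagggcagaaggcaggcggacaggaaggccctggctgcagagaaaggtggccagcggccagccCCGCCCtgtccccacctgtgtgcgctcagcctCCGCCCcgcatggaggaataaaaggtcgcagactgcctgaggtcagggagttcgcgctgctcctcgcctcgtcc
TATAAA is found in the Krt20 window, 29 to 24 bases before the start, and GGGCGG at 4 places in the Krt7 window. The Krt5, Krt14 and Krt23 windows hold neither run of letters. In all, 37 windows of 36 keratins were matched by symbol. TATAAA was in 51.4% of the keratin windows, against 13.6% of all 32851 windows. Counted only between bases -35 and -20 it was in 32.4% against 2.12%. GGGCGG went the other way, in 5.41% against 35.7%. TGANTCA (AP-1 site) was in 5.41% against 7.81%. TATAAA near the start was found in 30.4% of 23 windows of detected keratins and in 35.7% of 14 windows of keratins detected on no array. A match describes the letters in the window and is not a measured site.

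The first tumour comparison asks what differed between the tumour-derived Pik3ca/Trp53 culture and the culture that was inoculated. Most measured keratins had a higher signal in the tumour-derived culture, led by basal, stress and some glandular chains. Of 32 keratins measured on either array, 19 were at least 2-fold higher in the tumour-derived culture (59.4%, against 14.6% of 14727 genes) and 1 was at least 2-fold lower (3.12%, against 10.4%). The median keratin difference was 1.42 log2 units, or 1.15 with dim signals raised to the lowest level well above background, against -0.042 for all genes. A gene dim on every array but 1 could enter the count only through the array where it was high. Among the 22 keratins well above background on both arrays, 11 were at least 2-fold higher (50%, against 8.72% of 12987 genes) and 1 lower (4.55%, against 7.94%). Background correction by normexp left 13 of 32 keratins higher (40.6%, against 7.6% of genes) and 1 lower (3.12%, against 5.32%).

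Basal and stress keratins led this difference, with 6 of 7 at least 2-fold higher. Krt14 was 237-fold higher in the tumour-derived culture and Krt17 170-fold, both measured above background on both sides. Krt5 was at least 210-fold higher. Both chains of the basal pair were thus far above their source. Krt6a was 39.1-fold higher and Krt6b at least 16.8-fold. Krt15 was 2.29-fold higher, and Krt16 was 1.97-fold higher, just under the 2-fold limit. In gene order, Krt6b, Krt6a and Krt5 are consecutive on chromosome 15, and Krt14, Krt16 and Krt17 are consecutive on chromosome 11, so the least changed member lies between 2 of the most changed.

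Simple keratins divided into 2 kinds. Krt20 was 46.7-fold higher in the tumour-derived culture, Krt23 26.8-fold, Krt7 3.13-fold and Krt80 2.24-fold, with the 2 probes of Krt80 differing (SD 0.65 log2 units). Krt8, Krt18 and Krt19 were 1.40-fold, 1.58-fold and 1.81-fold higher, each under the 2-fold limit. None of the 7 simple keratins had a lower signal in the tumour-derived culture.

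Suprabasal keratins, which mark cells that have left the basal layer, were higher for 4 of 7 measured. The mucosal pair took part: Krt4, the type II chain, was at -1.39 in the tumour-derived culture and -4.65 (dim) in its source, at least 7.19-fold higher, and Krt13, its type I partner, was at -0.62 and -3.11, 5.63-fold higher. Krt79, a type II chain that in mouse skin marks the upper hair follicle, was at 0.01 and -2.84, 7.24-fold higher. Krt9, of palm and sole epidermis, was at least 1.92-fold higher. Krt12, the corneal chain, was 1.19-fold lower. Epidermal Krt10 was 1.17-fold higher, and its partner Krt1 was detected on no array.

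A few hair and root sheath keratins were higher as well. Krt84, of hair cuticle and tongue papillae, was at 0.70 in the tumour-derived culture and -5.08 (dim) in its source, at least 30.7-fold higher. Krt32, a hair cuticle chain, was at least 2.31-fold higher, with its 2 probes far apart (SD 1.82 log2 units). Krt81, of the hair cortex, was 2.20-fold higher, and Krt25, of the inner root sheath, at least 2.61-fold. Krt71, the type II chain of that sheath, was at -4.31 and -6.31 (dim), so close to background that no bound on its fold can be given. Krt83, a type II hair chain, went the other way at -2.28 and 0.47, 6.73-fold lower, and was the only keratin lower by 2-fold in this comparison.

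Genes outside the family were read from lists of the keratin filament's partners and regulators. Of 17 measured desmosome and hemidesmosome genes, 3 were at least 2-fold higher (17.6%, near the 14.6% of all genes) and none 2-fold lower in the tumour-derived Pik3ca/Trp53 culture. These were Pkp1 (plakophilin of stratified epithelium) 7.24-fold, Jup (plakoglobin) 2.14-fold and Col17a1 (a basal cell anchor to the basement membrane) at least 6.39-fold, with its 2 probes far apart in size (SD 2.70 log2 units). Of 12 measured regulators, 6 were higher by the mean of their probes and none lower. Tfap2c, an AP-2 factor of epidermis and other ectoderm, was at 2.03 and -6.44 (dim), at least 77.1-fold higher by the mean of 2 probes that differed in size (SD 2.65). Trp63, the master factor of basal cells, is counted among the 6, but its 2 probes disagreed (SD 3.86 log2 units around a mean of 2.65), so no fold is given for it. Grhl1 was 6.36-fold higher, Grhl3 2.79-fold, Fosl1 at least 3.59-fold and Tfap2a at least 1.83-fold. Squamous and basal markers that are not keratins had 4 higher, Trp63 again among them, and 2 lower of 8 measured. Lypd3 was 5.09-fold and Sfn 4.12-fold higher, Ivl (involucrin) at least 2.09-fold and Sprr2d 4.95-fold lower, and the basal cadherin Dsg3 was dim on all 6 arrays.

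Markers of another cell type moved with these differences. Of 9 fibroblast and smooth muscle genes, 5 were above background in the tumour-derived Pik3ca/Trp53 culture and 3 in its source, with a summed linear signal of 4.86 and 2.31 relative to the 75th percentile, while Dcn and Col3a1 were dim on all 6 arrays. Acta2 entered these sums at 1.20 and -0.91, the mean of 2 probes whose differences were far apart (SD 2.24 log2 units). The 2 probes of Pdgfra also disagreed (SD 3.97). The mesenchymal filament vimentin (Vim) was at least 8.98-fold higher in the tumour-derived culture. Mesothelial markers summed to 50.1 in the tumour-derived culture and 16.7 in its source, with 2 of 4 genes above background in each. Msln, which makes up most of both sums, was 3.68-fold higher in the tumour-derived culture, whereas Wt1 was at -5.82 (dim) and 1.65, at least 74.0-fold lower. The part of these cell types, or of the Trp53 signal described above, in the keratin values was not tested.

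**Figure D2:**
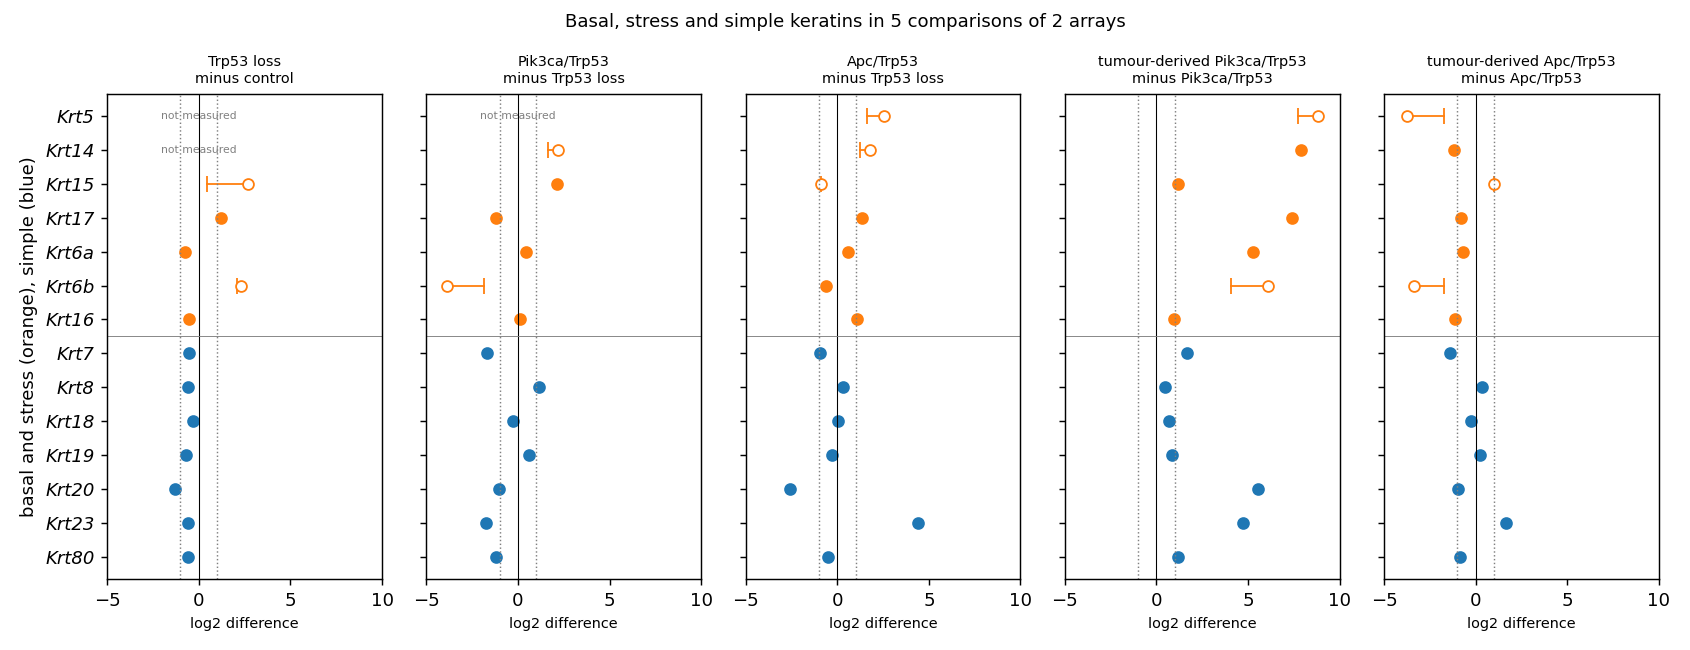
Log2 differences of the 14 basal, stress and simple keratins (y axis) in 5 comparisons of 2 arrays (panels, x axis in log2 units, positive where the first-named culture is higher), with dotted lines at 2-fold. Open points have a dim signal on 1 array and the bar runs to the value with that signal raised to the lowest level well above background. In the tumour-derived Pik3ca/Trp53 panel Krt5, Krt14, Krt17, Krt6a, Krt6b, Krt20 and Krt23 lie between 4.74 and 8.81, and no other panel has a point beyond 4.42.

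The tumour-derived Apc/Trp53 culture, grown from a cyst, differed from its source in another way. Of 31 keratins measured, 4 were at least 2-fold higher (12.9%, against 11.3% of 14888 genes) and 9 at least 2-fold lower (29.0%, against 8.03%). The share that was higher is near that of all genes. Scaling by the array median, which shifted all genes in this comparison by -0.34 log2 units, gave 3 higher and 14 lower keratins and 1246 higher and 2076 lower genes in place of 1686 and 1196. Quantile normalization gave 3 and 12 keratins, and 1535 higher and 1406 lower of 14888 genes. Among the 20 keratins above background on both arrays, 2 were higher (10%, against 7.2% of 13616 genes) and 3 lower (15%, against 6.01%). Background correction by normexp left 2 higher and 1 lower of 31 keratins (6.45% and 3.23%, near the 4.42% and 3.66% of all genes).

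Basal and stress keratins were lower for 4 of 7. Krt5 was at least 3.28-fold lower in the tumour-derived Apc/Trp53 culture, Krt6b at least 3.32-fold, Krt14 2.27-fold and Krt16 2.16-fold. Krt17 was 1.72-fold and Krt6a 1.65-fold lower, both under 2-fold. Krt15 was 2.02-fold higher as measured, at the edge of the limit. Its dim signal in the source, at -4.88, already lay above the level that dim signals were raised to, so this fold is not a bound. Of the simple keratins, Krt7 was 2.62-fold lower and Krt23 3.15-fold higher, Krt20 was 1.94-fold lower and Krt80 1.84-fold lower, and Krt8, Krt18 and Krt19 differed by 1.25-fold or less.

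The other keratins of this pair followed no single direction. Krt79 was at -0.28 in the tumour-derived Apc/Trp53 culture and -2.53 in its source, 4.75-fold higher, and Krt84 was at -2.86 and -5.62 (dim), at least 4.11-fold higher. Krt77, an epidermal type II chain, was at least 2.60-fold lower, Krt12 at least 2.71-fold, Krt90 at least 2.56-fold and Krt4 at least 1.43-fold. Krt77 and Krt90 were above background on the Apc/Trp53 array alone. Of the non-keratin genes, 4 of 11 measured regulators were lower and none higher (Klf4 2.62-fold, Grhl1 2.57-fold, Grhl3 5.32-fold and Fosl1 at least 6.03-fold), and 3 of 17 attachment genes were lower (Dsp 2.15-fold, Pkp1 2.69-fold and Ppl 4.05-fold). Vim was at least 4.15-fold higher. Fibroblast and smooth muscle genes summed to 2.32 in the tumour-derived culture, with 4 of 9 above background, and 1.94 in its source, with 2 of 9. Mesothelial genes summed to 3.25 and 18.0. Their part in the keratin values was not tested.

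The 2 tumour-derived pairs were set side by side over the 28 keratins measured in both. As measured, Krt15, Krt23, Krt79 and Krt84 were at least 2-fold higher in both tumour-derived cultures (14.3% of the 28, against 2.30% of the 13932 genes measured in both). No keratin was 2-fold lower in both (1.11% of genes). Krt4, Krt5, Krt6b, Krt7 and Krt14 were at least 2-fold apart in opposite directions, higher in the tumour-derived Pik3ca/Trp53 culture and lower in the tumour-derived Apc/Trp53 culture than in their sources (17.9%, against 4.97% of genes in opposite directions either way). A limma fit of both tumour-derived arrays against both sources, blocked by genotype and left with 1 degree of freedom, called 0 of 14238 genes at an adjusted p of 0.05 in either direction (0% higher and 0% lower), so 0 of 28 keratins. At an unadjusted p under 0.05 the fit had 531 genes and 3 keratins. Krt79 had a mean difference of 2.55 ± 0.33 log2 units (SE), Krt84 of 4.27 ± 0.95, Krt15 of 1.1 ± 0.28 and Krt23 of 3.20 ± 0.96, each with a limma adjusted p of 0.999. These keratins were picked because they were 2-fold higher in both pairs of the same data. Each pair is 1 genotype, so genotypes stand in for replicates and the SE holds the difference between them. Krt84 was dim in both sources and Krt15 in Apc/Trp53, and these signals entered as measured. No difference common to both pairs passed the test.

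**Figure D3:**
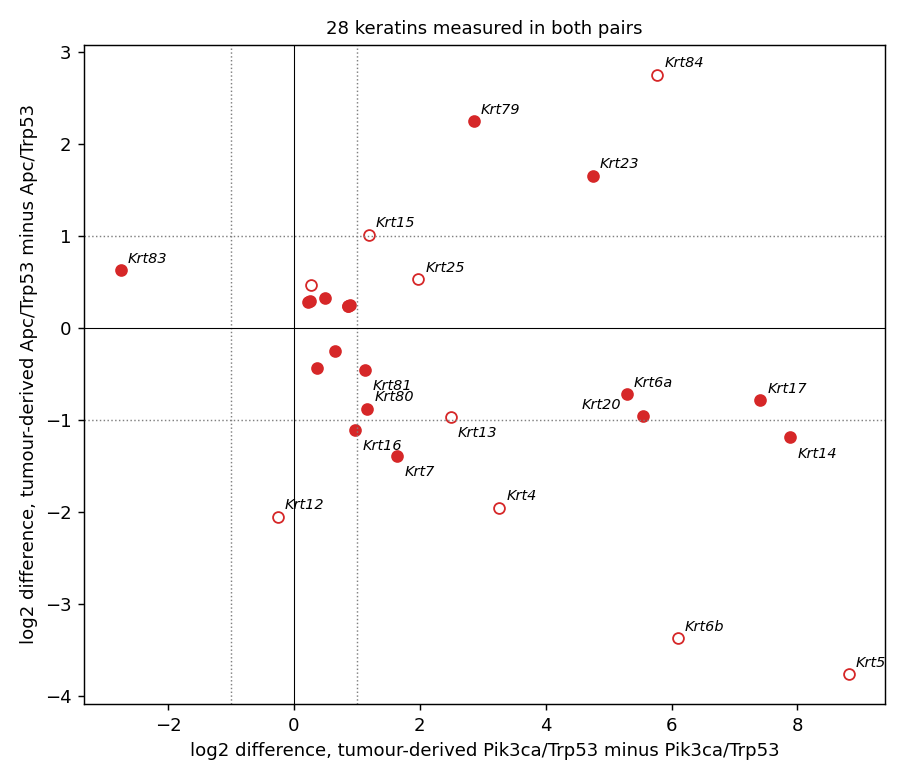
Each point is 1 of the 28 keratins measured in both pairs, with the log2 difference of tumour-derived Pik3ca/Trp53 minus Pik3ca/Trp53 on the x axis and of tumour-derived Apc/Trp53 minus Apc/Trp53 on the y axis. Open points are dim on at least 1 array, and dotted lines mark 2-fold. Krt84, Krt79, Krt23 and Krt15 lie at the upper right, and Krt5, Krt6b, Krt4, Krt7 and Krt14 at the lower right.

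The cultures before inoculation ask what each allele adds to Trp53 loss. The Pik3ca/Trp53 and Apc/Trp53 comparisons share the Trp53-loss array, so a signal peculiar to that array enters both. In Pik3ca/Trp53, 6 of 28 keratins were at least 2-fold higher than in Trp53 loss (21.4%, against 9.15% of 14237 genes) and 9 at least 2-fold lower (32.1%, against 8.54%). With normexp these counts were 3 and 3 (10.7% each, against 4.68% and 3.05% of genes). Among the 20 keratins above background on both arrays they were 4 and 5 (20% and 25%, against 6.76% and 5.08% of 13030 genes). Simple keratins were lower for 4 of 7: Krt23 3.34-fold, Krt7 3.26-fold, Krt80 2.34-fold (SD between its 2 probes 1.15 log2 units) and Krt20 2.02-fold, which is under 2-fold with median scaling (log2 -0.95) and with normexp (-0.85). Krt8 was 2.23-fold higher, while its partner Krt18 was 1.21-fold lower.

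Other keratins of Pik3ca/Trp53 went both ways. Krt15 was 4.43-fold higher than in Trp53 loss and Krt14 at least 3.11-fold, whereas Krt6b was at least 3.61-fold and Krt17 2.26-fold lower. Krt5 was dim on both arrays, so no fold is given for the other chain of the basal pair. Krt83 was at 0.47 in Pik3ca/Trp53 and -1.75 in Trp53 loss, 4.67-fold higher. Krt13 was at least 2.81-fold and Krt12 at least 2.05-fold higher. Krt26, Krt71 and Krt84, all above background in Trp53 loss, were dim in Pik3ca/Trp53 and at least 11.1-fold, 2.39-fold and 2.98-fold lower. Of 3 mesothelial genes measured, Wt1 was 3.44-fold higher in Pik3ca/Trp53, and Msln was 2.31-fold and Upk3b at least 13.1-fold lower. Their part in the keratin values was not tested.

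In Apc/Trp53, 9 of 32 keratins were at least 2-fold higher than in Trp53 loss (28.1%, against 5.43% of 14463 genes) and 4 at least 2-fold lower (12.5%, against 5.19%). With normexp these counts were 2 and 2 (6.25% each, against 1.69% and 1.75% of genes). Among the 21 keratins above background on both arrays they were 4 and 1 (19% and 4.76%, against 3.13% and 3.35% of 13453 genes). Krt23 differed most among those measured above background on both arrays, at 2.46 in Apc/Trp53 and -1.95 in Trp53 loss, 21.3-fold higher. Its neighbour Krt20 was at -1.32 and 1.25, 5.93-fold lower. Krt83 was at 1.20 and -1.75, 7.73-fold higher. The pair next to each other on chromosome 11 thus differed in opposite directions in this comparison, and in the same direction between the tumour-derived Pik3ca/Trp53 culture and its source.

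Basal and stress keratins were higher in Apc/Trp53 for 4 of 7, at lower levels than in the tumour-derived Pik3ca/Trp53 culture. Krt5 was at least 3.03-fold and Krt14 at least 2.38-fold higher than in Trp53 loss, Krt17 2.56-fold and Krt16 2.10-fold. Krt77 and Krt90 were at least 2.40-fold and 2.37-fold higher, and Krt13 at least 1.05-fold, since it lay near background. Krt7, Krt8, Krt18 and Krt19 were all under 2-fold apart. Krt26, Krt71 and Krt84 were dim and at least 17.5-fold, 3.77-fold and 4.71-fold lower, and all 3 were above background on the Trp53-loss array that both comparisons share. Of 11 regulators measured, Grhl3 alone was 2-fold higher (3.24-fold) and none was lower. Of 3 endothelial genes, Kdr was 8.50-fold and Cdh5 3.87-fold higher in Apc/Trp53, with a summed signal of 1.94 against 0.331 in Trp53 loss. Of 3 mesothelial genes measured, Wt1 was at least 27.2-fold and Upk3b 3.22-fold lower, and the sums were 18.0 and 33.1. Their part in the keratin values was not tested.

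Trp53 loss against control gave smaller differences in simple keratins. Of 28 keratins measured, 6 were at least 2-fold higher in Trp53 loss (21.4%, against 5.86% of 14361 genes) and 5 at least 2-fold lower (17.9%, against 7.58%). With normexp these counts were 1 and 3 (3.57% and 10.7%, against 1.87% and 2.72% of genes). Among the 22 keratins above background on both arrays they were 2 and 3 (9.09% and 13.6%, against 3.08% and 4.63% of 13230 genes). Scaling by the array median, which shifted all genes by 0.20 log2 units here, gave 6 and 3 keratins and 1115 higher and 843 lower genes in place of 841 and 1088. Krt20 was 2.45-fold lower, and the other 6 simple keratins were 1.23-fold to 1.62-fold lower. Of the basal and stress list, Krt17 was 2.32-fold higher, Krt6b at least 4.24-fold and Krt15 at least 1.38-fold, while Krt5 and Krt14 were dim on both arrays. All 4 measured genes of multiciliated cells were at least 2-fold lower in Trp53 loss, and the mesothelial Wt1 was at least 20.2-fold higher. Their part in the keratin values was not tested.

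Differentiation, root sheath and hair keratins differed from control as well. Krt13 was at -5.78 (dim) in Trp53 loss and -1.86 in control, at least 6.69-fold lower, with both of its probes lower (SD 0.43 log2 units). Krt12 was at -4.42 and -2.73, at least 2.55-fold lower. Krt26, an inner root sheath chain, was at -0.77 and -3.09, 4.98-fold higher, and it was dim on the other 4 arrays. Krt71 was at least 2.80-fold and Krt84 at least 3.50-fold higher, Krt88 at least 2.20-fold and Krt222 2.04-fold lower. With median scaling Krt88 and Krt222 were under 2-fold apart (log2 -0.96 and -0.83). With quantile normalization Krt88 was at -0.98 and Krt222 at -1.02. With normexp Krt71, Krt84 and Krt88 were under 2-fold apart (0.73, 0.64 and -0.27), and Krt222 was at -1.03.

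A fit of the 3 Trp53-loss cultures before inoculation against the 1 control array asked whether a difference was shared by all 3. Its spread is that between genotypes, with 2 residual degrees of freedom, and it assumes that the control varies as much. limma called 0 of 15025 genes at an adjusted p of 0.05 in either direction (0% higher and 0% lower), and so 0 of 33 keratins. At an unadjusted p under 0.05 it had 1275 genes and 2 keratins. Krt88 had a mean difference of -1.55 ± 0.36 log2 units (SE) with a limma adjusted p of 0.401, and Krt222 of -1.28 ± 0.35 with 0.475. Krt20 had a difference of -2.49 ± 1.11 (adjusted p = 0.670).

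**Figure D4:**
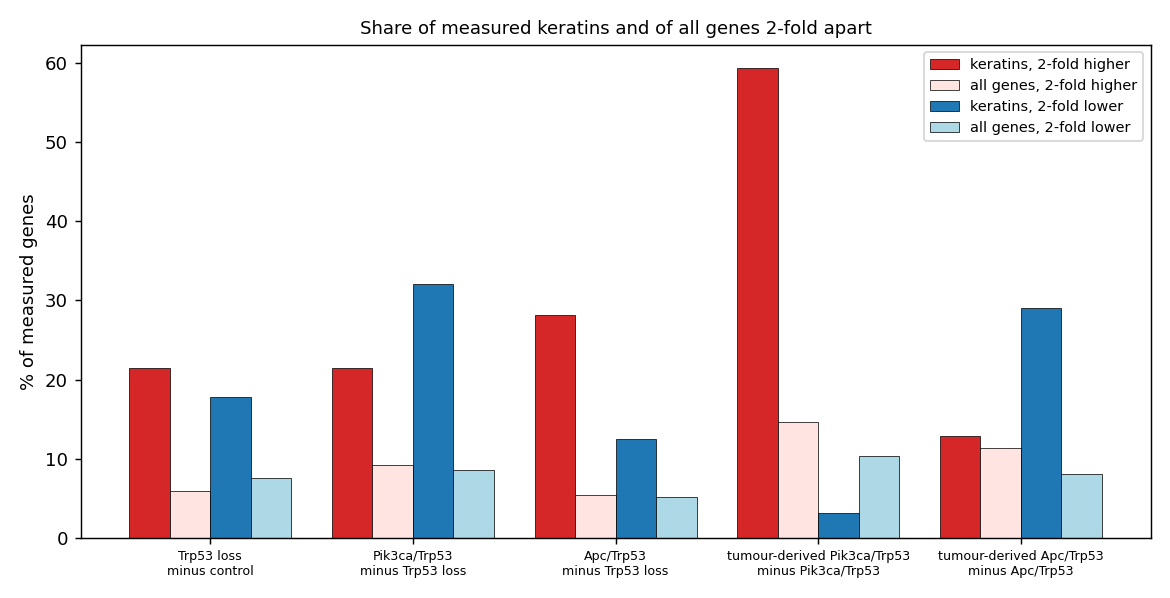
Share of measured keratins and of all measured genes that were at least 2-fold higher or lower (y axis, % of measured genes) in the 5 comparisons of 2 arrays (x axis), with 28 to 32 keratins a comparison and no error bars, since each group has 1 array. The tumour-derived Pik3ca/Trp53 pair has 59.4% of keratins higher and 3.12% lower, against 14.6% and 10.4% of all genes.

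Several members stayed nearly level. Krt31, Krt10 and Krt87 were above background on all 6 arrays and spanned 0.53, 0.78 and 0.86 log2 units, and Krt86, above background on 5, spanned 0.82. Krt24 was above background on the tumour-derived Pik3ca/Trp53 array alone, and under 2-fold apart there. Krt42, named here after its values were seen, followed Krt19 closely, at 4.79 in tumour-derived Pik3ca/Trp53, 3.93 in Pik3ca/Trp53, 3.14 in tumour-derived Apc/Trp53, 2.91 in Apc/Trp53, 3.18 in Trp53 loss and 3.69 in control. Its log2 differences were -0.51, 0.75, -0.27, 0.85 and 0.23 in the comparisons of Trp53 loss, Pik3ca/Trp53, Apc/Trp53, tumour-derived Pik3ca/Trp53 and tumour-derived Apc/Trp53, and those of Krt19 were -0.69, 0.61, -0.29, 0.86 and 0.24. Whether the Krt42 probe reports Krt19 RNA was not tested. For genes with several probes, the median SD of a difference between probes was 0.13 to 0.21 log2 units in the 5 comparisons, which measures probes on the same arrays and not the spread between cultures.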

How the data were processed

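The authors deposited 1 scanner file an array, read with the software Agilent Feature Extraction (11.0.1.1, from the submitters' processing notes), whose intensity per spot is corrected for background but not scaled between arrays, per the file headers. The authors also deposited log2 values of 2047 probes that they chose, 12 of them for 10 keratins. Its differences between columns equal those of the log2 scanner intensity up to a constant, and its centring and probe choice are not stated. Its column medians were -0.05, 0.15, -0.20, -0.32, -0.02 and 0.03 in the order tumour-derived Pik3ca/Trp53, Pik3ca/Trp53, tumour-derived Apc/Trp53, Apc/Trp53, Trp53 loss and control.

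Control and outlier spots were left out, spots of a probe averaged, and log2 values scaled by the 75th percentile over all gene spots. Of 56605 probes, 34566 were named through RefSeq (GRCm38.p6) and 22039 were not. A gene's difference averages its probes that were well above background on either array. A dim signal was raised to the lowest level well above background of its array for "at least" folds, while counts used signals as measured. With 1 array a group there is no test, and a log2 difference of 1 or more was counted. The 2 limma fits used Benjamini-Hochberg adjustment over all genes. The 2-fold count after percentile scaling and the 2 fits were tested on simulated data. The members and lists were chosen with earlier results of these data known. Named with values are the 8 markers Krt5, Krt14, Krt17, Krt7, Krt8, Krt18, Krt20 and Krt23, detected keratins 2-fold apart in a comparison, and partner chains. The hair keratin Krt85 was not analysed here. Alternatives were median scaling, quantile normalization, normexp with offset 50 (on median signals, as the files have no mean signal column), other probe filters and the value table. Software was limma 3.58.1 and data.table (version 1.17.8) in R 4.3.3, and pandas 2.3.3, numpy 2.4.6 and matplotlib 3.10.9 in Python 3.11.15.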

Additional observations from a re-analysis of the deposited data

Results flagged for a closer look

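Krt4, Krt5, Krt6b, Krt7 and Krt14 were higher in the tumour-derived Pik3ca/Trp53 culture than in its source and lower in the tumour-derived Apc/Trp53 culture than in its source, each by at least 2-fold as measured. The difference of the first pair less that of the other was 5.21 log2 units for Krt4, 12.6 for Krt5, 9.47 for Krt6b, 3.04 for Krt7 and 9.07 for Krt14. With 1 array for each culture, this difference between the pairs was not tested. Krt7 and Krt14 were well above background on all 4 of these arrays. Krt4, Krt5 and Krt6b were dim on 2 of the 4, so the size of their difference depends on signals near background.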

How the results depend on the processing

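The 5 comparisons rest on 1 array a group. Slide row is shared with the groups in 3 of them, and slide column in the rest. Many keratins were dim on 1 of the 2 arrays, which limits their folds to bounds. Of 1078 recomputed single keratin values, 849 moved by less than the spread used for them, 228 moved and 1 reversed. The reversed value was Krt71 in the tumour-derived Pik3ca/Trp53 comparison, at -0.067 with dim signals raised. Normexp moved 85 of 120 values, median scaling 47 and quantile normalization 34. The 849 include all 120 with the 75th percentile over probes and all 41 from the authors' deposited values. Both settings shift a comparison only by a constant. All 77 with probes above background on both arrays are also included, a filter that leaves the value of a single-probe gene unchanged. Of 126 recomputed counts, 97 stayed within 1.5 times and 29 moved.

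Median scaling shifted the median of all genes by -0.14 (tumour-derived Pik3ca/Trp53), -0.34 (tumour-derived Apc/Trp53), 0.06 (Pik3ca/Trp53), 0.07 (Apc/Trp53) and 0.20 (Trp53 loss). It gave 14 lower keratins for tumour-derived Apc/Trp53 and 3 for Trp53 loss. Normexp was an alternative chosen after seeing the files, and its offset draws dim values together. It gave 13 higher and 1 lower keratins for tumour-derived Pik3ca/Trp53, and 2 and 1 for tumour-derived Apc/Trp53. For Pik3ca/Trp53 there were 3 and 3, for Apc/Trp53 2 and 2, and for Trp53 loss 1 and 3. With probes above background on both arrays only, which leaves fewer genes, there were 11 higher and 1 lower for tumour-derived Pik3ca/Trp53. The counts were 2 higher and 3 lower for tumour-derived Apc/Trp53, 4 and 5 for Pik3ca/Trp53, 4 and 1 for Apc/Trp53, and 2 and 3 for Trp53 loss. The matching counts or shares of all genes are given with each comparison above. The deposited value table, with 10 keratins, gave 7 higher and 0 lower for tumour-derived Pik3ca/Trp53, and 2 and 2 for tumour-derived Apc/Trp53. It gave 3 lower for Pik3ca/Trp53, where Krt12, Krt13, Krt14 and Krt15 were at least 2-fold higher. For Apc/Trp53 it gave 3 higher and 2 lower, and for Trp53 loss 3 and 2. Of all genes in its chosen set, 349 of 765 were higher and 221 lower for tumour-derived Pik3ca/Trp53. The counts were 272 and 211 of 772 for tumour-derived Apc/Trp53 and 175 and 281 of 734 for Pik3ca/Trp53. They were 158 and 223 of 754 for Apc/Trp53 and 273 and 336 of 882 for Trp53 loss. These shares are larger than on the full array. Under quantile normalization the limma fit of the Trp53-loss cultures against control called 2 genes higher and 74 lower at an adjusted p of 0.05, among them 0 keratins. The cause was not tested. The limma fit of both tumour-derived arrays without the genotype block called 0 genes higher and 0 lower, as did the fit with it.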

Other observations

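Intermediate filaments other than keratins also differed between the tumour-derived Pik3ca/Trp53 culture and its source. Of 10 measured, 5 were at least 2-fold higher as measured (50%, against 14.6% of all genes) and 1 lower (10%, against 10.4%). Vim, Bfsp1 and Nefm, among the 5, were dim in the source and at least 8.98-fold, 1.89-fold and 1.58-fold higher. Bfsp1 and Nefm thus fall under 2-fold with dim signals raised. Nestin (Nes) was at 1.41 in the tumour-derived culture and -1.43 in its source, 7.17-fold higher, and lamin A/C (Lmna) was at 2.64 and 1.46, 2.26-fold higher. Synemin (Synm), a large filament protein that joins desmin and vimentin filaments, went the other way and was at least 28.6-fold lower. In the tumour-derived Apc/Trp53 culture Synm was at least 2.86-fold higher than in its source.

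Genes of multiciliated cells, the other main cell type of the oviduct lining, were read beside the keratins. Of 5 such genes, 4 were measured in Trp53 loss against control and all 4 were at least 2-fold lower in Trp53 loss as measured, against 7.58% of all genes. Dnah6 was at -6.89 (dim) in Trp53 loss and -3.76 in control, and was at least 1.79-fold lower with dim signals raised. The master regulator Foxj1 was at -1.54 in Trp53 loss and 0.07 in control.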
